A study of Mus musculus with 6 samples.

Results

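The genes described here encode the enzymes that write and erase methyl groups on histone lysines, remove acetyl groups from histones, and add or oxidise methyl groups on DNA. They were taken by symbol: every Kdm, Kmt and Setd gene with a number, Hdac1 to Hdac11, Ezh1 and Ezh2, Tet1 to Tet3 and every Dnmt gene. This gave 54 of the 18005 listed genes: 18 lysine demethylases, 18 lysine methyltransferases, 11 histone deacetylases, 3 TET dioxygenases and 4 DNA methyltransferases. RNA sequencing was done on hearts of 3 young and 3 old mice, all labelled WT and untreated, and the series title places them in a study of pathological cardiac hypertrophy with age. Ages in months, strain and sex are not in the labels, and the numbers 1 to 3 in the titles were taken as separate mice. Cardiomyocyte markers were abundant in every library, with summed levels of 71850 to 88410 CPM (counts relative to the library total, scaled with edgeR's TMM factors).

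Methylation of histone H3 at lysine 4 or lysine 36 marks active genes, and methylation at lysine 9 or lysine 27 marks silenced ones. SET-domain methyltransferases place these marks, and the flavin-dependent LSD and the oxoglutarate-dependent JmjC demethylases remove them. Histone deacetylases act inside corepressor complexes (class I) or, as class IIa enzymes, shuttle between nucleus and cytoplasm and restrain MEF2, a driver of hypertrophic gene expression in cardiomyocytes. DNMT enzymes methylate cytosine in CpG pairs, and TET enzymes oxidise the methylated base on the way to its removal.

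The whole libraries held 11295280 to 12514005 counts, so that 1 count is worth 0.0799 to 0.0885 CPM. The 54 genes took 0.216% to 0.243% of the counts in young and 0.2% to 0.207% in old libraries. In all, 1467 genes rose and 1368 fell, which is 11.4% and 10.6% of the genes tested. Of all calls, 51.7% were higher under TMM scaling, with 11 falling members. This share was 40.2% with upper-quartile factors (16 falling members), 32.7% without scaling factors (17) and 35.1% on FPKM (10), and the rising member was 1 in each. TMM factors were 1.01 to 1.04 in young and 0.955 to 0.988 in old libraries. Summed cardiomyocyte markers were 71850 to 74260 CPM in young and 84540 to 88410 CPM in old hearts, with 3 of 10 genes higher and 1 lower (Ttn), of which Actc1 held whichever library was left out. Of 8 fibroblast markers 2 rose and 2 fell, and of 8 macrophage markers 3 rose and 0 fell by edgeR, with 4 higher and 1 lower at an unadjusted p under 0.05. The atrial marker sum was 398 to 466 CPM in young and 118 to 188 CPM in old hearts, without overlap, mostly through Nppa (-2.32 ± 0.23), the natriuretic peptide gene, while 2 of the 6 tested atrial genes rose. Of 8 smooth muscle and pericyte markers 3 rose and 1 fell (Pdgfrb, -0.69 ± 0.11). Of 6 tested epicardial markers 1 rose (Wt1, 1.67 ± 0.13) and 0 fell by edgeR, while 5 had a fold change below 0. The calls of Pdgfrb and Wt1 held whichever library was left out, and in both lists the sums of the groups overlapped. The part of these cell types in the levels of the enzyme genes was not tested. The red cell marker sum ranged from 2162 to 16080 CPM within the young hearts, and the adipocyte sum was at most 2.72 CPM.

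Most of these genes were a little lower in old hearts, few of the differences passed the test, and 1 gene rose. Of the 54 genes, 52 passed the filter on low counts and were tested with edgeR's quasi-likelihood test over all 12893 genes tested. Kdm4d, a testis-type demethylase gene, had 1 count in young heart 1 and none elsewhere, and Dnmt3l, a germ cell cofactor of de novo methylation, had 3 to 9 counts per library. Of the 52, 11 fell, which is 21.2%, against 10.6% of all genes tested. Only 1 rose, which is 1.92%, against 11.4% of all genes tested. The fallers were Tet1, Dnmt1, Dnmt3a, Setd1b, Ezh1, Hdac7, Hdac9, Kdm2b, Kdm4b, Kdm5b and Kdm6a, and the riser was Kdm6b. A fold change (log2 of old over young) below 0 was found for 38 of the 52 (73.1%) and for 51% of all genes tested, and the medians were -0.14 and -0.01. The 3 old values lay below the 3 young ones for 18 of the 52 (34.6%, against 20.3% of all genes tested) and above them for 4 (7.69%, against 19.6%). In whole hearts fewer cells of a type and less RNA per cell cannot be told apart. Without young 1 the fallers numbered 5, without young 3 they numbered 6, and without old 3 they numbered 15 and the risers 2.

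The class medians of the log2 fold change were all below 0. They were -0.12 for demethylases, -0.12 for lysine methyltransferases, -0.06 for deacetylases, -0.28 for TET and -0.48 for DNMT genes. Under every alternative scaling, test and left-out library tried, each class median stayed below 0. The ranges were -0.2 to -0.05 for demethylases, -0.21 to -0.06 for lysine methyltransferases and -0.18 to -0.04 for deacetylases. They were -0.49 to -0.09 for TET and -0.56 to -0.34 for DNMT genes. The median of all genes moved too, to -0.09 with library size alone and -0.08 on FPKM with a pseudocount of 0.1. On FPKM with a pseudocount of 1 and a mean of at least 1, Tet1 and Dnmt3b were left out. There the TET median was -0.09, close to the -0.07 of all genes. With the gene length trend removed, demethylases stood at -0.05 and lysine methyltransferases at -0.06. Of the deacetylases 54.5% were below 0, against 51% of all genes tested. The standard errors of single genes were 0.08 to 0.35, with a median of 0.11.

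**Figure D1:**
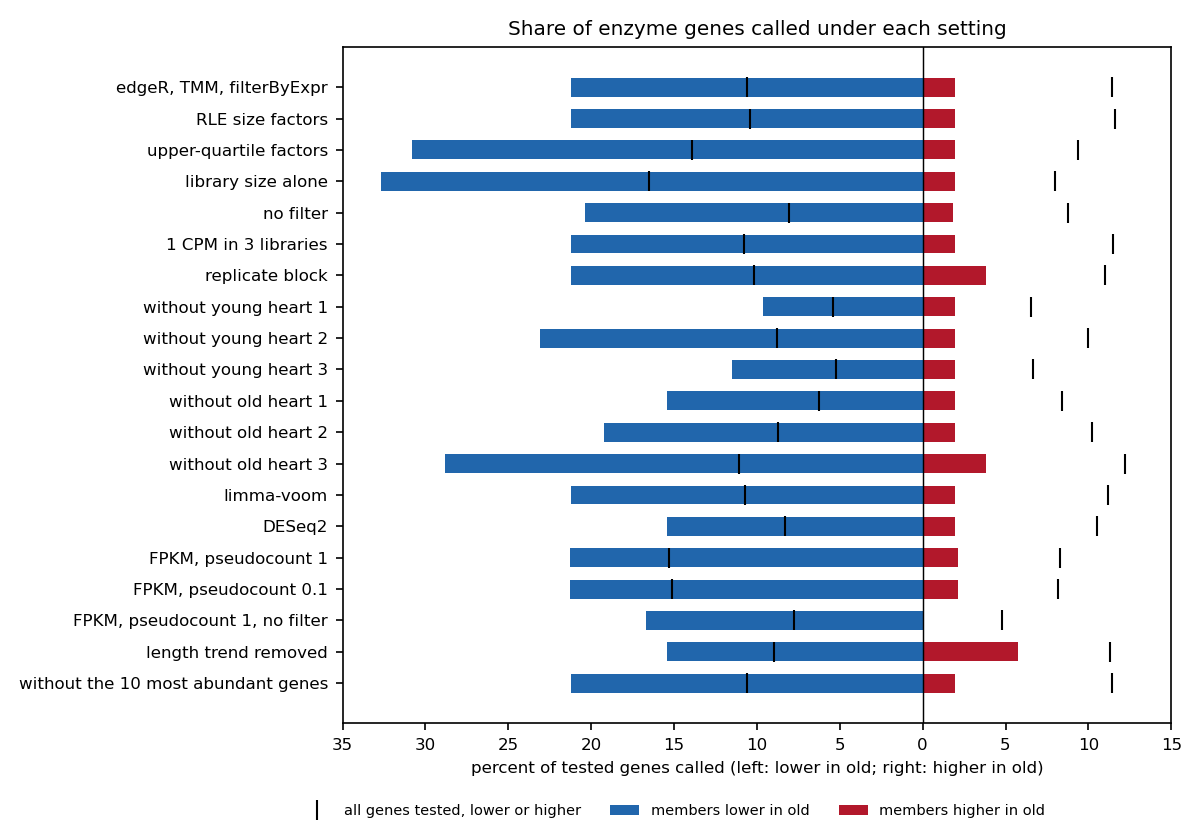
Percent of tested genes called under each setting (horizontal axis, lower in old to the left, higher to the right). Bars are the enzyme genes and black ticks all genes tested. The blue bar is longer than the tick in every setting, from 9.62% against 5.44% without young heart 1 to 32.7% against 16.5% with library size alone.

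**Figure D2:**
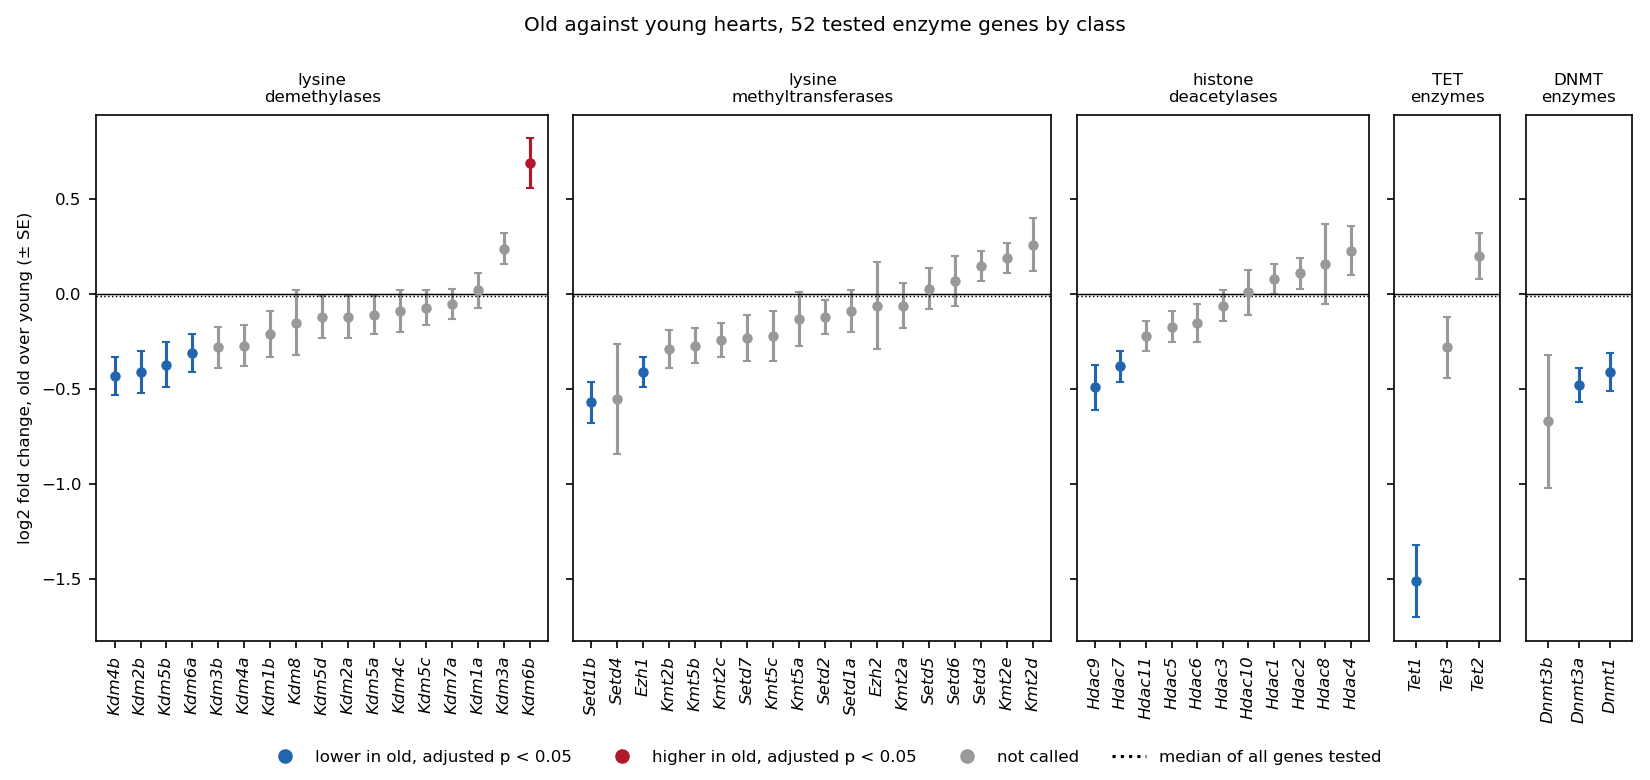
Log2 fold change of old over young hearts (vertical axis, with SE bars) for the 52 tested genes, in panels by enzyme class. Blue points passed edgeR at an adjusted p under 0.05 as lower, the red point as higher and grey points did not pass; the dotted line is the median of all genes tested (-0.01). Tet1 stands lowest at -1.51 and Kdm6b highest at 0.69.

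The promoters of the TET and EZH genes are shown because in each family 1 gene fell and its relatives did not pass the test. Each sequence runs from 250 bases before to 50 bases after the RefSeq start site of the GRCm38.p6 build, on the minus strand in all 5 cases, with CpG pairs in capitals. Tet1 is at chr10:62887275-62887574, Tet2 at chr3:133544341-133544640, Tet3 at chr6:83441629-83441928, Ezh1 at chr11:101226414-101226713 and Ezh2 at chr6:47594981-47595280.
Tet1: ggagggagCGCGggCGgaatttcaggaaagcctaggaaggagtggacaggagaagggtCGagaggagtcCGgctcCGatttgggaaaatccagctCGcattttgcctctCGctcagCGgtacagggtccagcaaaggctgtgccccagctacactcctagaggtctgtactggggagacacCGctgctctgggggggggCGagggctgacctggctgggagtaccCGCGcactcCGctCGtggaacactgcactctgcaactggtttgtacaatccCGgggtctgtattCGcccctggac
Tet2: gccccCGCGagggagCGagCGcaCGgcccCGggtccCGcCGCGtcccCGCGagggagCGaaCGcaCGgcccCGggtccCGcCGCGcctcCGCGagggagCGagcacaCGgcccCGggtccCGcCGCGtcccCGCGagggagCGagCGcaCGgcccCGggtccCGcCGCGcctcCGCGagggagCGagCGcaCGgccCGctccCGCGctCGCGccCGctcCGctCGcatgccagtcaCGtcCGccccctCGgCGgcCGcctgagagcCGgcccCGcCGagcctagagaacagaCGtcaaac
Tet3: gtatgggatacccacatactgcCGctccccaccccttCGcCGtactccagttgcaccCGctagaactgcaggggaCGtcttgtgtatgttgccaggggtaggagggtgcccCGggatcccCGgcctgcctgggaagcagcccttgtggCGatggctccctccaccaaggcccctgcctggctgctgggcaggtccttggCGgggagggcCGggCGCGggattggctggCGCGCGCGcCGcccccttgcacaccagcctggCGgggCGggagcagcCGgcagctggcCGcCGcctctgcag
Ezh1: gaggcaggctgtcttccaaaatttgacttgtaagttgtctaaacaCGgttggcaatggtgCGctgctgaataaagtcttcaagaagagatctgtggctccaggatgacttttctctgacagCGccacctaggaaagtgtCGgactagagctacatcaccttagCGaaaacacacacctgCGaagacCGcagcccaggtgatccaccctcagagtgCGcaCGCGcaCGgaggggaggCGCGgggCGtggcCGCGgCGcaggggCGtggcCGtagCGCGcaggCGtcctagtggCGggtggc
Ezh2: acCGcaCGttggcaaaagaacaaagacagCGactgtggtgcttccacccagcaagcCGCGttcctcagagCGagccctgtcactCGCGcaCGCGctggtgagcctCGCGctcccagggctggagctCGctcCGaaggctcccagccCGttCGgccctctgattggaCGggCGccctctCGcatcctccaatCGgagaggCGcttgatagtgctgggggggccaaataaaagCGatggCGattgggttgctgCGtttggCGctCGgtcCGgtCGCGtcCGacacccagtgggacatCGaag

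The Tet1 window holds 17 CpG pairs at 61.7% G and C, against 57 pairs at 81.3% for Tet2 and 22 pairs at 71.3% for Tet3. Ezh1 has 23 pairs (59.3% G and C) and Ezh2 has 31 (64.3%). The median over all 32851 promoter entries of the table is 7 pairs. These families were picked for display after the calls were seen, and the counts do not sort the same way elsewhere: the faller Kdm5b has 17 pairs, against 13 for Kdm5c and 15 for Kdm5d, which did not pass. RefSeq windows were present for 43 of the 54 genes, in 63 entries, with a median of 22 CpG pairs and a range of 0 to 65. Of the 12 genes that changed, 9 had a window.

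Motifs were searched on both strands in these windows, with overlapping matches allowed; none of the motifs contains another. The GC box GGGCGG was found in 30 of the 43 genes and in 7 of the 9 changed ones (Tet1 with 1 match among them), against 35.7% of all promoter entries. The E-box CACGTG was found in 5 of 43 genes (7.15% of all entries), among them the fallers Dnmt3a and Kdm6a. The AP-1 site TGANTCA was found in 5 of 43 (7.81% of all entries), among them the fallers Hdac7 and Hdac9. The TATA box TATAAA was found in 3 of 43 (13.6% of all entries), among them Hdac9. The cAMP response element TGACGTCA was found in 0 of 43 and in 1.79% of all entries. A gene with several start sites was counted if any of its windows held the motif, so the shares per gene and per entry are not on the same footing. Ezh1 and Ezh2 held none of these motifs in this window.

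Levels can be compared between genes on the FPKM scale, which divides by gene length. The most abundant genes were the histone H4 lysine 20 monomethyltransferase gene Kmt5a, at a mean of 52.2 FPKM over the 6 hearts, and Setd3, which encodes an actin histidine methyltransferase, at 39.1 FPKM. Hdac3 (36.3 FPKM), the catalytic subunit of the NCoR corepressor complex, and the class IIa gene Hdac5 (33.7 FPKM) came next. The ranges over the 6 hearts overlapped within each of these pairs. Hdac1, Hdac2 and Hdac11 followed at 15.9, 15.9 and 15.8 FPKM, with overlapping ranges, and Ezh1 stood at 14.4 FPKM.

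The demethylase genes formed a gradual series from Kdm1a (10.8 FPKM) to Kdm8 (2.10 FPKM), in which each gene's range overlapped that of the next. At the low end of the set were Ezh2 (0.925 FPKM), Setd4 (0.423 FPKM), Dnmt3b (0.324 FPKM), Tet1 (0.245 FPKM) and Hdac8 (0.235 FPKM). The gene length used by the authors was 18262 bases for Tet1 and 17124 bases for Hdac8, against a median of 6380 bases for the set and 3368 bases for all genes with counts. In counts Tet1 is therefore less scarce than its FPKM: it had 75 to 84 counts per young and 20 to 31 counts per old library.

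**Figure D3:**
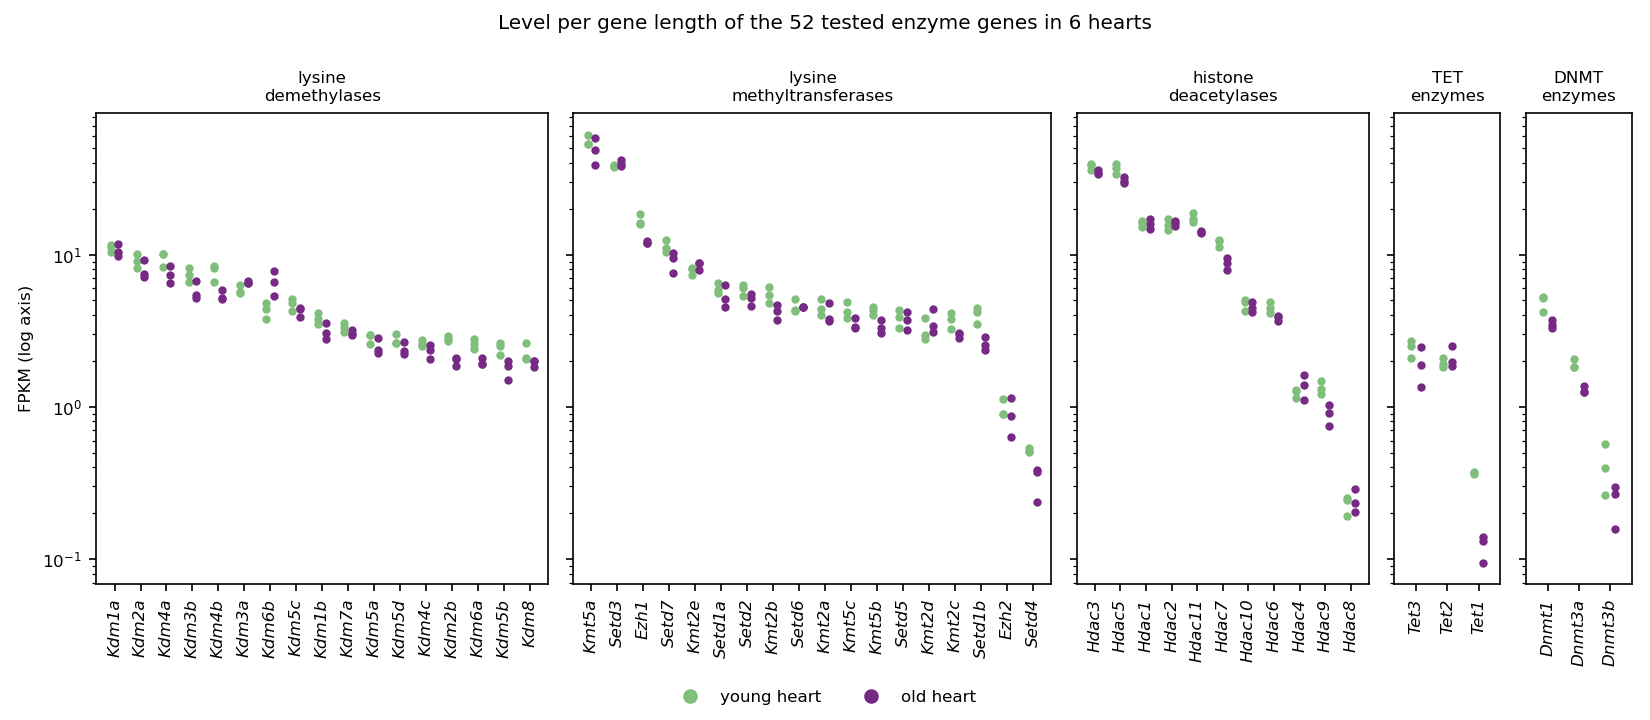
FPKM (vertical, log axis) of the 52 tested genes in each of the 6 hearts, green for young and purple for old, ordered by mean level within each class. Kmt5a, Setd3, Hdac3 and Hdac5 lie highest, and the old Tet1 points lie below all young ones.

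Among the TET genes, Tet1 showed the largest difference of the whole set and the other members did not pass. Tet1 had 6.56, 6.59 and 6.50 CPM in the young and 1.77, 2.68 and 2.43 CPM in the old hearts. The young values were nearly equal, and every old value was under the lowest young one by more than that spread (log2 fold change -1.51 ± 0.19, edgeR adjusted p = 0.00029). This call held whichever library was left out, with log2 fold changes of -1.63 to -1.35. Tet3, the most abundant member per length, had 28.9, 25.0 and 31.4 CPM in the young and 23.3, 17.1 and 30.0 CPM in the old hearts and overlapped between groups (log2 fold change -0.28 ± 0.16, edgeR adjusted p = 0.25). Without old 3 its adjusted p was 0.023. Tet2, the member best known from blood stem cells, had 17.6, 17.3 and 19.6 CPM in the young and 18.3, 19.9 and 24.5 CPM in the old hearts (log2 fold change 0.2 ± 0.12, edgeR adjusted p = 0.25), and old 3 was the highest of the 6. Tet1 made up 7.83% ± 0.697 of the summed TET FPKM (SD, n = 3) in the young group and 3.03% ± 0.88 in the old group.

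The DNA methyltransferase genes Dnmt1 and Dnmt3a fell, and Dnmt3b was too scarce for a firm statement. Dnmt1, which copies methylation after replication, had 31.7, 26.4 and 32.0 CPM in the young and 22.4, 21.8 and 23.9 CPM in the old hearts (log2 fold change -0.41 ± 0.10, edgeR adjusted p = 0.014). Dnmt3a, the main de novo enzyme of the postnatal heart, had 43.0, 44.5 and 49.1 CPM in the young and 31.4, 35.3 and 31.0 CPM in the old hearts (log2 fold change -0.48 ± 0.09, edgeR adjusted p = 0.003). In both genes all old values were below all young values. The call of Dnmt3a held whichever library was left out, and that of Dnmt1 was lost without young 1 (adjusted p = 0.068) and without young 3 (0.07), which left 1 faller in the class. Dnmt3b had 2.19, 3.25 and 1.47 CPM in the young and 1.59, 0.951 and 1.73 CPM in the old hearts, overlapping (log2 fold change -0.67 ± 0.35, edgeR adjusted p = 0.19). Dnmt3a took 25.9% ± 1.46 of the summed DNMT FPKM (SD, n = 3) in the young group and 24.8% ± 2.5 in the old group, with overlap. This share rests on lengths of 24591 bases for Dnmt3a and 6326 for Dnmt1, as in CPM Dnmt3a stood above Dnmt1 in every heart. Of 10 tested proliferation genes, 1 fell (10%, against 10.6% of all genes tested) and 0 rose by edgeR. The faller was Mki67 (-0.8 ± 0.24), a call kept only without old 1. At an unadjusted p under 0.05, 2 were lower and 0 higher. Summed levels of the list were 38.2 to 43.7 CPM in young and 28.3 to 44.1 CPM in old hearts. The part of the proliferation genes in the fall of Dnmt1 was not tested.

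Of 17 tested lysine demethylase genes, 4 fell (23.5%, against 10.6% of all genes tested) and Kdm6b rose (5.88%, against 11.4%). Kdm6b, an inducible JmjC enzyme that removes lysine 27 methylation of histone H3, had 46.9, 41.6 and 51.4 CPM in the young and 89.2, 77.5 and 59.8 CPM in the old hearts (log2 fold change 0.69 ± 0.13, edgeR adjusted p = 0.0038). All old values were above all young ones, and old 3 was nearest to the young range. The call held whichever library was left out, with log2 fold changes of 0.56 to 0.85, and was lost on unfiltered FPKM (limma adjusted p = 0.058). Kdm6a, its X-linked relative, fell: it had 20.8, 18.5 and 19.6 CPM in the young and 15.3, 15.6 and 16.6 CPM in the old hearts (log2 fold change -0.31 ± 0.10, edgeR adjusted p = 0.038). This call was lost without young 1 (adjusted p = 0.16), young 3 (0.11), old 1 (0.11) and old 2 (0.084), and also by DESeq2 (0.14), on unfiltered FPKM (0.07) and with the gene length trend removed (0.11). Uty, the Y-linked relative of Kdm6a, had 19.5, 18.9 and 21.9 CPM in the young and 15.2, 18.1 and 16.7 CPM in the old hearts and did not pass (log2 fold change -0.27 ± 0.11, edgeR adjusted p = 0.091). Reads shared by Kdm6a and Uty, or by Kdm5c and Kdm5d, may have been split by the counting.

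The ratio of Kdm6b to Kdm6a on the FPKM scale was 1.58, 1.57 and 1.84 in the young and 4.08, 3.49 and 2.53 in the old hearts. The groups did not overlap, which follows from the opposite separations of Kdm6b and Kdm6a and is no further result. Old 3 again lay nearest to the young hearts. Immediate early genes, which respond within minutes to stress or stimulation, are given beside it: their summed level was 362 to 661 CPM in young hearts, 1748 and 1929 CPM in old 1 and old 2, and 4917 CPM in old 3. Of 18 such genes, 17 rose (94.4%, against 11.4% of all genes tested) and 0 fell by edgeR, and all 18 were higher at an unadjusted p under 0.05. Most of the single genes, like their sum, were highest in old 3, where Kdm6b was lowest of the old hearts. Egr1, for example, had 84.1, 102 and 814 CPM in old 1, old 2 and old 3. Nr4a3, at 129, 179 and 90.04 CPM, was an exception and was lowest in old 3. The part of these genes' response in the level of Kdm6b was not tested.

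The other fallers among the demethylases act on different lysines. Kdm2b, which removes lysine 36 methylation and binds unmethylated CpG islands, had 16.6, 17.9 and 16.3 CPM in the young and 11.8, 13.3 and 13.2 CPM in the old hearts (log2 fold change -0.41 ± 0.11, edgeR adjusted p = 0.017). Kdm4b, which removes lysine 9 trimethylation, had 45.8, 37.2 and 44.7 CPM in the young and 29.8, 31.1 and 33.6 CPM in the old hearts (log2 fold change -0.43 ± 0.10, edgeR adjusted p = 0.0092). Kdm5b, which removes lysine 4 methylation, had 18.4, 16.5 and 19.6 CPM in the young and 14.5, 12.01 and 15.6 CPM in the old hearts (log2 fold change -0.37 ± 0.12, edgeR adjusted p = 0.045). In each of the 3 the groups did not overlap, as for 20.3% of all genes tested in this direction. The calls were less firm than that of Tet1. Kdm2b was lost without young 1, young 2 or old 1 (adjusted p = 0.055, 0.057 and 0.068), and Kdm4b without young 1 or young 3 (0.053 and 0.05). Kdm5b was lost without young 1 (0.13), young 3 (0.18), old 1 (0.082) and old 2 (0.14). DESeq2 called neither Kdm2b (0.056) nor Kdm5b (0.097), and Kdm5b was also lost in the 3 fits on FPKM (limma adjusted p = 0.057, 0.059 and 0.099) and with the gene length trend removed (0.11). The count of falling demethylase genes was 0 without young 1 and 1 without young 3 or old 1.

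The remaining demethylase genes did not pass. Kdm1a, the LSD enzyme and the most abundant demethylase gene, had 35.1, 32.7 and 34.6 CPM in the young and 38.2, 32.4 and 33.5 CPM in the old hearts and overlapped (log2 fold change 0.02 ± 0.09, edgeR adjusted p = 0.89); Kdm1b, the LSD enzyme active in oocytes, was at -0.21 ± 0.12. Kdm3a, a hypoxia-inducible lysine 9 demethylase, had 28.7, 28.9 and 31.7 CPM in the young and 34.8, 36.5 and 34.2 CPM in the old hearts, so that its groups did not overlap, but it missed the threshold (log2 fold change 0.24 ± 0.08, edgeR adjusted p = 0.059). Its relative Kdm3b was at -0.28 ± 0.11 and Kdm7a, which acts on lysine 9 and lysine 27, at -0.05 ± 0.08. Kdm2a, the relative of Kdm2b, was at -0.12 ± 0.11, and Kdm8 was at -0.15 ± 0.17. Kdm4a, a lysine 9 and lysine 36 demethylase, was at -0.27 ± 0.11 and Kdm4c at -0.09 ± 0.11. Among the lysine 4 demethylases, Kdm5a was at -0.11 ± 0.10, the X-linked Kdm5c at -0.07 ± 0.09 and the Y-linked Kdm5d at -0.12 ± 0.11. Kdm5d was detected in each of the 6 hearts, at 13.28 to 16.95 CPM.

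Of 18 lysine methyltransferase genes, 2 fell and 0 rose by edgeR. The falls are 11.1% of the class, close to the 10.6% of all genes tested, while 11.4% of all genes rose. At an unadjusted p under 0.05, 5 were lower and 1 higher, and limma-voom and DESeq2 each gave 2 lower and 0 higher. Ezh1, a catalytic subunit of the lysine 27 methyltransferase PRC2 that prevails in non-dividing cells, had 64.3, 67.8 and 74.8 CPM in the young and 51.3, 52.2 and 52.1 CPM in the old hearts (log2 fold change -0.41 ± 0.08, edgeR adjusted p = 0.005). The old values lay close to each other and below all young values. Ezh2, the subunit of dividing cells, had 3.83, 4.92 and 3.87 CPM in the young and 3.98, 2.94 and 5.11 CPM in the old hearts, overlapping (log2 fold change -0.06 ± 0.23, edgeR adjusted p = 0.87). Setd1b, a lysine 4 methyltransferase of the COMPASS family, had 36.3, 31.4 and 39.0 CPM in the young and 21.8, 24.0 and 26.1 CPM in the old hearts, with all old values below all young ones (log2 fold change -0.57 ± 0.11, edgeR adjusted p = 0.003). The calls of Ezh1 and Setd1b held whichever library was left out. On the FPKM scale the lysine 27 demethylase genes Kdm6a and Kdm6b summed to 0.426, 0.356 and 0.383 of the sum of Ezh1 and Ezh2 in young hearts. In old hearts this ratio was 0.764, 0.687 and 0.555, above every young value. That separation follows from its parts and is no further result. In old hearts the demethylase sum lay above, and the Ezh sum below, every young value. The corresponding ratio for lysine 4, Kdm5 genes over COMPASS genes, was 0.475 ± 0.0189 (SD, n = 3) in the young group and 0.481 ± 0.0234 in the old group, with overlap.

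The other COMPASS genes did not pass. Setd1a, the close relative of Setd1b, had 31.9, 34.3 and 37.1 CPM in the young and 31.0, 28.1 and 38.0 CPM in the old hearts, overlapping (log2 fold change -0.09 ± 0.11, edgeR adjusted p = 0.6). Kmt2b and Kmt2c had all old values below all young values, at -0.29 ± 0.10 and -0.24 ± 0.09 (edgeR adjusted p = 0.069 and 0.078). Kmt2a, the MLL1 gene, was at -0.06 ± 0.12. Kmt2d, which with Kmt2c marks enhancers, was at 0.26 ± 0.14, overlapping, with its highest value in old 3. Without young 2, Kmt2b and Kmt2c passed, and without old 3, Kmt2b and Kmt5b passed, which brought the fallers of the class to 4 in each case. Kmt2e and Setd5, SET-domain genes without clear enzyme activity, were at 0.19 ± 0.08 and 0.03 ± 0.11, and Kmt2e had no overlap between groups.

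Kmt5a, the most abundant lysine methyltransferase gene, had 199, 236 and 199 CPM in the young and 194, 235 and 152 CPM in the old hearts. The groups overlapped, and old 3 was the lowest of the 6 (log2 fold change -0.13 ± 0.14, edgeR adjusted p = 0.54). Kmt5b and Kmt5c, whose enzymes extend the lysine 20 mark, were at -0.27 ± 0.09 and -0.22 ± 0.13, Kmt5b narrowly missing the threshold (edgeR adjusted p = 0.052). Setd2, whose enzyme completes lysine 36 methylation, was at -0.12 ± 0.09. Setd3 was at 0.15 ± 0.08, Setd6, which methylates the NF-kappaB subunit RelA, at 0.07 ± 0.13, and the scarce Setd4 at -0.55 ± 0.29. Setd7, whose enzyme methylates several non-histone proteins, had 78.5, 77.2 and 89.3 CPM in the young and 78.4, 73.5 and 56.9 CPM in the old hearts, and here too old 3 was lowest (log2 fold change -0.23 ± 0.12, edgeR adjusted p = 0.17).

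Of 11 histone deacetylase genes, 2 fell and 0 rose by edgeR, which is 18.2% lower against 10.6% of all genes tested, of which 11.4% rose. At an unadjusted p under 0.05, 3 were lower and 0 higher, and limma-voom and DESeq2 each gave 2 lower and 0 higher. Hdac9, of class IIa, had 30.5, 25.8 and 27.5 CPM in the young and 20.2, 23.3 and 16.4 CPM in the old hearts (log2 fold change -0.49 ± 0.12, edgeR adjusted p = 0.017), and Hdac7, of the same class, had 86.2, 82.2 and 88.0 CPM in the young and 65.9, 60.8 and 70.7 CPM in the old hearts (log2 fold change -0.38 ± 0.08, edgeR adjusted p = 0.0084). The old values were below all young values in both. The call of Hdac7 held whichever library was left out, and that of Hdac9 was lost without young 1 (adjusted p = 0.08) and young 3 (0.06), which left 1 faller. Hdac9 also missed the threshold in the 3 fits on FPKM (limma adjusted p = 0.053, 0.058 and 0.059) and with the gene length trend removed (0.066). Hdac5, the main class IIa gene of these hearts, had 160.1, 151 and 172 CPM in the young and 136, 145 and 149 CPM in the old hearts, without overlap between groups, and did not pass (log2 fold change -0.17 ± 0.08, edgeR adjusted p = 0.17). Hdac4 went the other way, at 27.3, 24.9 and 27.4 CPM in the young and 36.9, 32.1 and 24.9 CPM in the old hearts (log2 fold change 0.23 ± 0.13, edgeR adjusted p = 0.21), and passed as higher without old 3 (adjusted p = 0.015). Hdac5 supplied 71.6% ± 0.719 of the summed class IIa FPKM (SD, n = 3) in the young group and 73.7% ± 1.3 in the old group, with overlap. This share rests on lengths of 4526 bases for Hdac5, against 22138 for Hdac4 and 21627 for Hdac9.

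Class I genes, which act in the NuRD, Sin3, CoREST and NCoR complexes, did not pass. Hdac3 had 76.1, 77.4 and 69.6 CPM in the young and 70.2, 70.6 and 73.0 CPM in the old hearts (log2 fold change -0.06 ± 0.08, edgeR adjusted p = 0.61), overlapping. Hdac1 and Hdac2 were at 0.08 ± 0.08 and 0.11 ± 0.08, and the scarce Hdac8 was at 0.16 ± 0.21. Hdac6, the cytoplasmic tubulin deacetylase gene, and Hdac10, whose enzyme acts on polyamines, were at -0.15 ± 0.10 and 0.01 ± 0.12. Hdac11, the class IV gene, had 42.1, 41.2 and 46.1 CPM in the young and 37.5, 37.6 and 35.7 CPM in the old hearts, without overlap, and missed the threshold (log2 fold change -0.22 ± 0.08, edgeR adjusted p = 0.069). The summed class IIa FPKM was 0.711, 0.677 and 0.808 of that of class I in young hearts and 0.612, 0.637 and 0.628 in old hearts, without overlap. Hdac7 is also well known from vessel endothelium. Of 8 endothelial markers, 2 fell (25%, against 10.6% of all genes tested) and 0 rose by edgeR. The fallers were Kdr at -0.54 ± 0.17, a call kept only without old 3, and Tek at -0.5 ± 0.10. At an unadjusted p under 0.05, 3 were lower and 0 higher. A fold change below 0 was found for 7 of the 8 (87.5%, against 51% of all genes tested). The exception was Fabp4 (0.19 ± 0.14), the most abundant, with means of 822 CPM in young and 937 CPM in old hearts. The summed level of the list was 2628 to 2846 CPM in young and 2117 to 2890 CPM in old hearts. The part of endothelial content in the fall of Hdac7 was not tested.

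**Figure D4:**
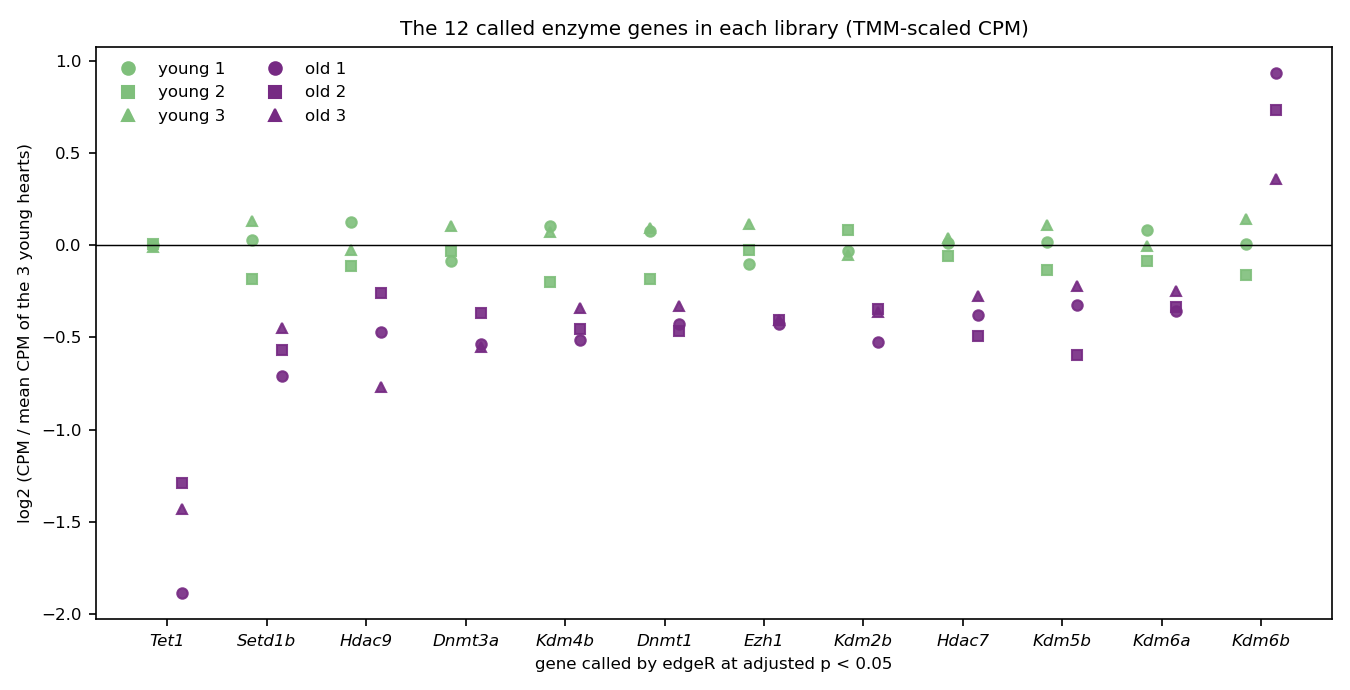
Level of the 12 genes that passed the test in each library, as log2 of CPM over the mean of the 3 young hearts (vertical axis), green for young and purple for old, with a marker shape per mouse number. In each gene the 3 old points lie on 1 side of the 3 young points, and old 3 is nearest to the young hearts for Kdm6b and farthest for Hdac9.

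Partners and related enzymes outside the name rule were read from 9 lists with 139 genes in all, of which 137 were tested. Of these, 16 were higher and 12 lower in old hearts, and their median difference on the log2 scale was -0.03. The calls are 11.7% and 8.76% of those tested, against 11.4% and 10.6% of all genes. The fallers numbered 4 without young 1, 3 without young 3 and 3 without old 1.

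Partner subunits were read from 3 lists, and in 2 of them no gene passed. Of 10 PRC2 subunit genes, 0 were called by edgeR, and the most abundant were Rbbp7 at 0.02 ± 0.09 and Rbbp4 at 0.05 ± 0.08. Of 12 COMPASS subunit genes, 0 were called by edgeR, with Hcfc1 at -0.12 ± 0.10 and Wdr82 at -0.07 ± 0.09. At an unadjusted p under 0.05, 1 PRC2 gene was higher and 2 COMPASS genes were lower, and limma-voom and DESeq2 called 0 in both lists. Of 28 HDAC corepressor genes, 2 rose (7.14%, against 11.4% of all genes tested) and 5 fell (17.9%, against 10.6%). Mbd3 and Gatad2a were higher, and Rcor3, Mideas, Gatad2b, Mta1 and Chd4 lower. Gatad2a, a NuRD subunit, rose from 38.9, 38.0 and 38.2 CPM to 61.0, 54.5 and 57.0 CPM (log2 fold change 0.58 ± 0.08, edgeR adjusted p = 0.0004), while its relative Gatad2b fell (log2 fold change -0.36 ± 0.09, edgeR adjusted p = 0.012). Rcor3 of CoREST fell (log2 fold change -0.52 ± 0.09, edgeR adjusted p = 0.0017), as did Mideas, a partner of HDAC1 and HDAC2 (log2 fold change -0.45 ± 0.09, edgeR adjusted p = 0.0057). The call of Gatad2b was lost without young 3 (adjusted p = 0.065) and old 1 (0.057). Mta1, Chd4 and Mbd3 were each lost without young 1, young 3 and old 1, Mta1 also without young 2 and Chd4 without old 2, with adjusted p of 0.054 to 0.19.

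Kinases and cofactors around the class IIa deacetylases formed another list. Of 18 tested, 5 rose (27.8%, against 11.4% of all genes tested) and 1 fell (5.56%, against 10.6%). The faller, the kinase gene Prkd3 (-0.25 ± 0.08), was lost whichever library was left out (adjusted p = 0.062 to 0.18), and the riser Myocd (0.33 ± 0.08), a cofactor of SRF, without young 1 (0.081). Prkd2, a protein kinase D that phosphorylates class IIa deacetylases, had 39.7, 40.7 and 44.0 CPM in the young and 86.0, 72.0 and 77.7 CPM in the old hearts (log2 fold change 0.92 ± 0.09, edgeR adjusted p = 4.2e-05). Srf, the serum response factor gene, had 121, 138 and 138 CPM in the young and 197, 255 and 209 CPM in the old hearts (log2 fold change 0.73 ± 0.11, edgeR adjusted p = 0.00064). Camk2b, a calcium-dependent kinase gene, rose by 0.62 ± 0.10 and the 14-3-3 protein gene Ywhaz by 0.54 ± 0.09 on the log2 scale (edgeR adjusted p = 0.0012 and 0.0013). Each of these 4 held whichever library was left out. The genes of the MEF2 factors themselves did not pass, with Mef2a at 0.05 ± 0.08, Mef2c at -0.19 ± 0.09 and Mef2d at -0.1 ± 0.09.

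Among 15 readers of methylated DNA and repair genes, 5 rose (33.3%, against 11.4% of all genes tested) and 2 fell (13.3%, against 10.6%). Gadd45g, a stress-induced gene linked to active demethylation, rose from 9.84, 7.73 and 6.35 CPM to 40.0, 49.3 and 68.3 CPM (log2 fold change 2.72 ± 0.20, edgeR adjusted p = 6.8e-06), and Gadd45b was at 1.27 ± 0.26. Mbd1 rose (log2 fold change 0.83 ± 0.10, edgeR adjusted p = 0.00021). Mbd1, Gadd45b and Gadd45g held whichever library was left out. Mbd3 and Gadd45a were also called higher, and Smug1 lower (0.32 ± 0.08, 0.48 ± 0.13 and -0.37 ± 0.11); Gadd45a was kept only without old 2, Smug1 was lost without young 1, young 2, young 3 and old 1, and Mbd3 as above. Immediate early genes also rose in old hearts. Within the young hearts their sum was 361.6, 660.5 and 661.3 CPM, in the opposite order to Gadd45g. Within the old hearts it was 1748, 1929 and 4917 CPM, in the same order as Gadd45g. The part of the immediate early genes' response in the Gadd45 levels was not tested. Of 15 genes of methyl donor and oxoglutarate supply, 2 rose (13.3%, near the share of all genes) and 1 fell (6.67%). Mat2a, which makes S-adenosylmethionine, the methyl donor, had 128, 152 and 163 CPM in the young and 324, 277 and 275 CPM in the old hearts (log2 fold change 0.98 ± 0.11, edgeR adjusted p = 9.7e-05). Mtr, methionine synthase, had 97.8, 103 and 108 CPM in the young and 179, 236 and 152 CPM in the old hearts (log2 fold change 0.88 ± 0.14, edgeR adjusted p = 0.00098). Both held whichever library was left out.

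Of 17 tested histone methyltransferase genes with other names, 1 rose (5.88%, against 11.4% of all genes tested) and 1 fell (5.88%, against 10.6%). Dot1l, the lysine 79 methyltransferase gene, was at 0.53 ± 0.12 and Smyd2 at -0.29 ± 0.09 (edgeR adjusted p = 0.0081 and 0.032). Of 13 other JmjC genes, 2 rose (15.4%, against 11.4%) and 1 fell (7.69%, against 10.6%). Jmjd6 had 31.7, 37.2 and 36.8 CPM in the young and 66.9, 65.2 and 59.5 CPM in the old hearts (log2 fold change 0.86 ± 0.09, edgeR adjusted p = 7.7e-05). Hr was at 0.75 ± 0.13 and Jmjd1c at -0.27 ± 0.08. Of 12 histone acetyltransferase genes, 0 rose by edgeR and 1 fell (8.33%, against 10.6%), Kat5 at -0.37 ± 0.11 (edgeR adjusted p = 0.033). At an unadjusted p under 0.05, 1 acetyltransferase gene was higher and 2 lower, and limma-voom and DESeq2 each gave 0 higher and 1 lower. Dot1l, Jmjd6 and Hr held whichever library was left out, but Smyd2 passed only without old 2. Kat5 and Jmjd1c passed only without young 2 or old 3, with adjusted p of 0.058 to 0.16 without the others.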

How the data were processed

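Hearts of 3 young and 3 old mice were sequenced after TruSeq Stranded mRNA library preparation, per the labels' protocols. The deposited values are whole-number gene counts and FPKM; the authors' FPKM equal the counts divided by 1 length per gene and the library total, within a relative tolerance of 0.0001. All 12 per-sample files equalled the columns of the tables of all samples. The submitters' processing notes name Trimmomatic, HISAT2, Bowtie2, HTSeq, Cufflinks, StringTie, DESeq and GRCm39. The sources used here give no versions, roles or strand setting, so antisense or overlapping genes cannot be told apart.

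Counts were tested with edgeR 4.0.16 (R 4.3.3) by the quasi-likelihood F test after filterByExpr and TMM, over 6 libraries with no covariate. Benjamini-Hochberg adjustment was over 12893 genes, with a threshold of 0.05. CPM are TMM scaled. SE came from the fold change and F. No pair of mice within a group was as alike as counting noise alone would make it (chi-square per degree of freedom of 7.9 to 16.7). P-values set the group difference against the spread between these mice, which edgeR moderates with information from all genes tested. On simulated counts the test missed part of the smallest changes, and the share of unchanged genes among its calls was above the nominal threshold.

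The members, enzyme classes and lists were chosen with earlier results of these data known. Every member is named; full values are given for those called and for the most abundant of each class. Lists are represented by up to 4 called genes of smallest p, or the 2 most abundant where none was called (some of these are not reported here); other genes named (Uty, Mef2a, Mef2c, Mef2d, Egr1, Nr4a3 and markers) were chosen after their values were seen. Alternatives were other scalings and filters, a replicate block, each library left out, limma-voom and limma on log2 FPKM (limma 3.58.1, pseudocounts of 1 and 0.1, mean FPKM of at least 1 or no filter), DESeq2 1.42.0, removal of a gene length trend (loess, span 0.5) and omission of the 10 most abundant genes. Promoter sequences are RefSeq windows of GRCm38.p6 matched by symbol; that build differs from the one in the notes.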

Additional observations from a re-analysis of the deposited data

How the results depend on the processing

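No member that was called in the reported test or an alternative changed direction between them; in 40 comparisons a member that was called in neither changed sign. Of the 12 called genes, Setd1b, Ezh1, Hdac7 and Dnmt3a were called under all 19 alternatives and Tet1 under the 17 that tested it. With a library left out, the members higher numbered 1 to 2 and those lower 5 to 15; all genes called numbered 850 to 1597 higher and 682 to 1444 lower. By class, the fallers were 0 to 5 demethylases, 2 to 4 lysine methyltransferases, 1 to 2 deacetylases, 1 to 2 TET and 1 to 2 DNMT genes, and the rising deacetylases 0 to 1. The partner lists then had 3 to 10 fallers. With library size alone 17 members and 2122 genes fell, with 5 lysine methyltransferases and 26 partner genes; upper-quartile factors gave 5 and 21. On FPKM with pseudocounts of 1 and 0.1, 907 and 897 genes rose, and 0 TET genes fell, since Tet1 was under the filter of a mean FPKM of 1. Without that filter 810 genes and 0 members rose (0 demethylases), 2 demethylases fell, and the adjusted p of Kdm6b was 0.058. DESeq2 left 1 falling demethylase. With the length trend removed 3 members rose (2 demethylases and 1 lysine methyltransferase, through Kdm3a and Kmt2e), and 2 demethylases and 1 deacetylase fell. Of 234 counts for single partner lists, 41 moved by over 1.5 times, each to between 0 and 4 genes.

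Mice with the same number showed no clear pairing. The correlations of their deviations from the group means were 0.08, 0.08 and 0.01, against -0.14 to 0.06 for mice with different numbers. Young 3 and old 3 correlated better with another number, and the other libraries best with their own. With 3 pairs this cannot decide whether the mice were paired. With a replicate block 2 members rose and 11 fell, 1 lysine methyltransferase (Kmt2d, adjusted p = 0.047) rose, and Kdm6a was lost (edgeR adjusted p = 0.057).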

Other observations

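The summed FPKM of the 3 TET genes over that of the 4 DNMT genes was 0.634, 0.618 and 0.675 in young and 0.748, 0.698 and 0.928 in old hearts, without overlap between groups. The ratio of the Y-linked Kdm5d to the X-linked Kdm5c was 0.585 ± 0.0327 (SD, n = 3) in the young group and 0.562 ± 0.0372 in the old group, with overlap. Ezh1 exceeded Ezh2 by 17.6 ± 2.93 times in young and 14.4 ± 4.06 times in old hearts, also overlapping.

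Single libraries stood at the edge of their group for many of the 52 tested members. Young 2 was the lowest of the young hearts for 35 of them, and young 3 the highest for 33. Old 3 was the highest of the old hearts for 29 and the lowest for 15. The median over the members, as log2 relative to the young mean, was -0.08 in young 2, 0.09 in young 3, -0.21 in old 1, -0.15 in old 2 and -0.1 in old 3.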
